A study of Mus musculus with 6 samples.

Results

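The genes described here are the ligands of the epidermal growth factor (EGF) family and their ErbB receptors, in the kidneys of adult mice. The set was named by gene: the ligands Egf, Areg, Hbegf, Tgfa, Ereg, Btc and Nrg1 and the receptors Egfr, Erbb2 and Erbb3, 10 genes in all. Of these, 9 were measured among 22180 genes (6 ligands and 3 receptors), and Areg was not analysed here. Each gene was read from the Affymetrix Mouse Gene 2.1 ST transcript cluster that carries its symbol alone and, where there was more than 1, from the cluster with the highest mean. RNA came from bulk kidney tissue, and each of 6 samples was hybridised to 1 array. The 3 arrays labelled knockout (numbers 1, 3 and 5; Pax28 dKO in the labels) stand for mice with floxed Pax2 and Pax8, paired-box transcription factors of the renal epithelium, and Rosa26CreER, a Cre recombinase that tamoxifen switches on. The 3 controls (numbers 2, 4 and 6) lacked Cre and also received tamoxifen, and their Pax2 and Pax8 alleles are not stated. All mice received 3 tamoxifen doses of 50 mg/kg when 8 weeks old and the same course when 10 weeks old, and their kidneys were harvested 14 days after the final dose. Knockout 1 and control 4 came from males and the other 4 arrays from females. Rosa26 is active in most cell types, so the deletion is not limited to tubules or to the kidney, and nothing in the labels says that the samples are separate animals, so the spread behind each p-value may be technical.

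EGF family ligands are made as membrane proteins and are released when a protease cuts them. Egf, Tgfa, amphiregulin (Areg), epiregulin (Ereg), betacellulin (Btc) and heparin-binding EGF (Hbegf) bind the EGF receptor Egfr, and Btc, Ereg and Hbegf also bind ErbB4. Neuregulin 1 (Nrg1) binds ErbB3 and ErbB4. Erbb2 has no known ligand of its own and pairs with the other receptors, and ErbB3 has little kinase activity and signals through its partners. In the kidney, Egf is made mainly in the thick ascending limb and the distal convoluted tubule and passes into the urine, and the receptor-bound ligands are known as growth signals for tubule cells after injury.

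The targeted genes were checked first. Pax8 was higher on the arrays labelled knockout, at 10.11 to 10.59 log2, against 8.89 to 9.09 on controls, and Pax2 lay at 6.11 to 6.49 against 5.77 to 6.09. Neither fell on the arrays labelled knockout. Pax8 was a call in the higher direction (log2 fold change 1.36, limma adjusted p = 0.00369), also in 6 of 6 fits with single arrays left out. Pax2 was not called (0.27, adjusted p = 0.189). Each has 1 cluster, and the exons deleted are not stated, so probes outside the deleted part would check nothing. These values therefore do not show the deletion, and the cause of the rise in Pax8 was not tested. Every direction given here is that of the arrays so labelled. Array medians lay between 3.81 and 3.87 log2. The labelled tissue was borne out by Umod, uromodulin of the thick ascending limb, at 11.41 to 11.88 log2 on the 6 arrays, and by Slc34a1, a phosphate transporter of the proximal tubule, at 11.29 to 11.84. Ucp1 of brown fat stood apart on controls 2 and 6, as did the adipose list (mean level 6.37 and 6.17 log2 there and 4.40 to 5.52 on the other 4 arrays), so results are also given without these controls.

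Between the groups, 1596 of 22180 genes passed a limma adjusted p of 0.05, which is 7.20% of all genes, 4.12% higher and 3.08% lower. Of the 9 measured members 1 passed (11.1%), Nrg1, which was higher, and 8 did not pass. These shares of adjusted calls lie close together. The counts that follow lie above the shares of all genes, for 9 members chosen with earlier results of these data known. At an unadjusted p under 0.05 there were 5 of 9, against 22.0% of all genes. The groups did not overlap for 6 of 9 members, 2 higher and 4 lower, where 22.5% of all genes showed no overlap. The median log2 fold change of the members was -0.06, and that of all genes was -0.01. All of the measured members had a mean level above 2.98 log2, the lower quartile of gene means. Without controls 2 and 6, the fit holds 1 control array and has 1 residual degree of freedom, its spread comes from knockout 3 and 5 alone, and a log2 fold change is the difference between the males. As limma called 0 of 22180 genes there (2329 at an unadjusted p under 0.05), its log2 fold changes are given for single genes and its lost calls say nothing about stability.

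**Figure D1:**
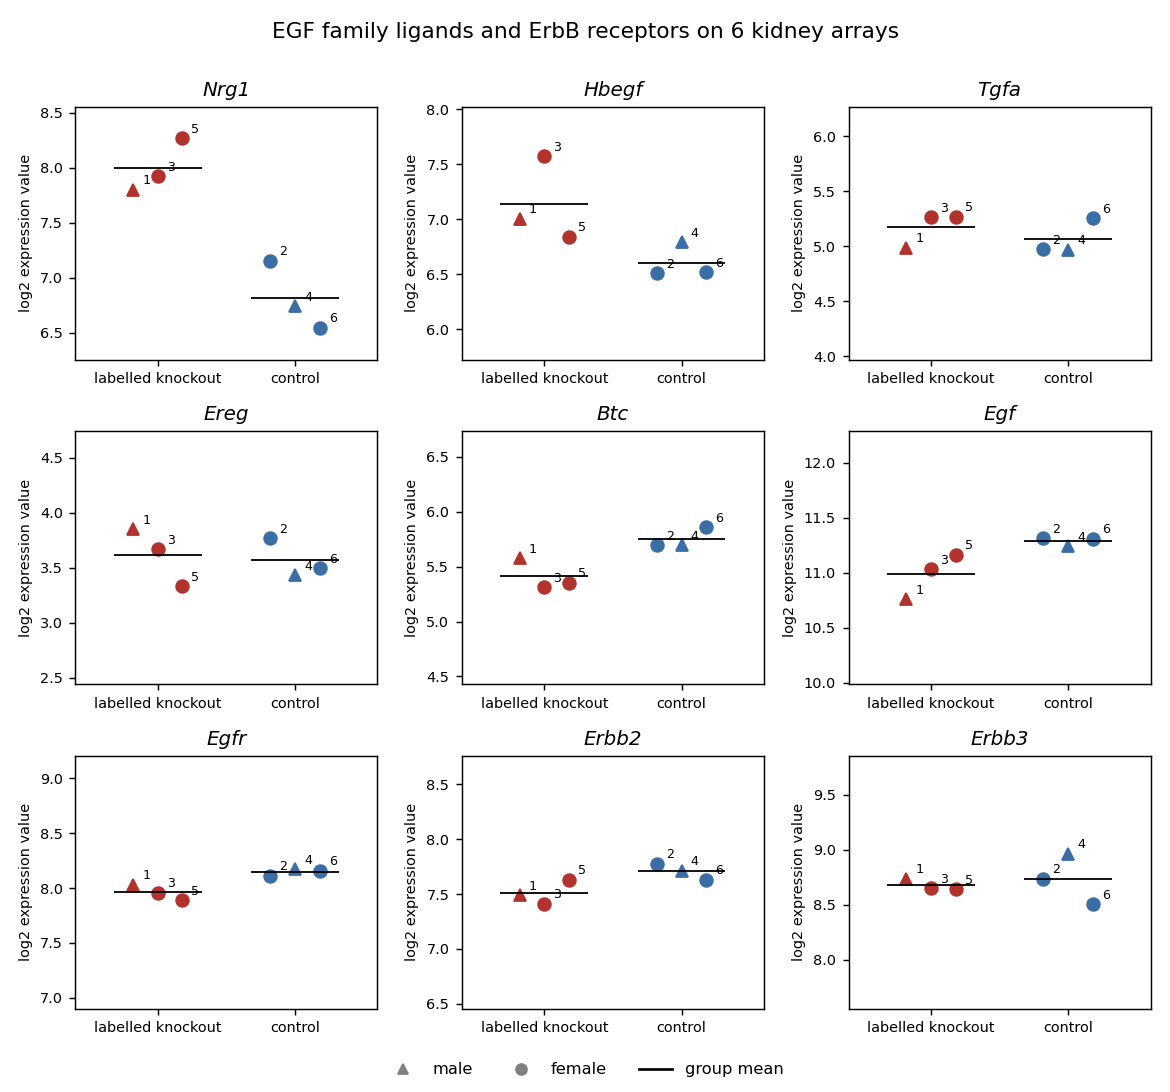
Deposited log2 expression values (vertical axes, each spanning the same 2.3 log2 units around the gene's own mean) of the 9 measured members on the 3 arrays labelled knockout (red) and the 3 controls (blue). Triangles are males, circles females, numbers are array numbers and lines are group means; Nrg1 and Hbegf lie wholly above the controls, Egf, Btc, Egfr and Erbb2 wholly below, and Tgfa, Ereg and Erbb3 overlap.

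Nrg1, the neuregulin, was the member that rose. It read 7.80, 7.92 and 8.27 log2 on knockout 1, 3 and 5, against 7.15, 6.74 and 6.54 on controls 2, 4 and 6. Every array labelled knockout lay above every control, and the value on knockout 5 was the top one. The means were 8.00 ± 0.24 and 6.81 ± 0.31 (SD, n = 3 each), a 2.27-fold difference with a log2 fold change of 1.18 ± 0.18 (SE; 95% interval 0.77 to 1.60) and a limma adjusted p of 0.0154. The difference was 1.06 between the males and 1.25 between the female means. In bulk tissue, fewer cells of a type and less RNA per cell cannot be told apart, and the same holds for a rise. The call was lost without knockout 5 (log2 fold change 1.07, adjusted p = 0.0558) and held without any other single array (0.99 to 1.34). When every row of the table was tested it was lost too (adjusted p = 0.0714). Without controls 2 and 6 the log2 fold change was 1.06.

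The other neuregulins and the epithelial mitogen Epgn, which are not members of the set, did not pass. The log2 fold change was -0.23 ± 0.11 for Nrg2, -0.18 ± 0.14 for Nrg3, 0.03 ± 0.14 for Nrg4 and 0.16 ± 0.12 for Epgn (SE, n = 3 per group; limma adjusted p between 0.291 and 0.925). The sign for Nrg4 turned under quantile normalization and median centring. Nrg3, with a mean of 2.88 log2, lay below the lower quartile of gene means.

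Among the genes with patterns most like that of Nrg1, searched over 16635 genes and the 6 arrays, Pearson's r was 0.995 for Mapkapk2, a kinase downstream of p38, 0.994 for Ubtd2 and 0.993 for Lair1, an inhibitory collagen receptor of leukocytes. The arrays share their 2 groups, so any gene that differs between the groups has a high r. Lair1 rose (log2 fold change 1.05, limma adjusted p = 0.00741), as did Ubtd2 (0.60, 0.0237), while Mapkapk2 stood at 0.40 and did not pass (0.0521). With single arrays left out, the call of Ubtd2 held in 1 of 6 fits, the one without knockout 3, and that of Lair1 in 6 of 6.

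Hbegf, a heparin-binding ligand that is known to be induced early by injury and by growth factor signalling, was 1.45-fold higher without passing. It read 7.00, 7.58 and 6.84 log2 on knockout 1, 3 and 5, against 6.51, 6.79 and 6.52 on controls 2, 4 and 6. The groups did not overlap, but knockout 5 lay only just above control 4, and knockout 3 stood well above the other arrays. The means were 7.14 ± 0.39 and 6.61 ± 0.16 (SD, n = 3 each), with a log2 fold change of 0.53 ± 0.20 (SE; 95% interval 0.06 to 1.01) and a limma adjusted p of 0.176. The log2 fold change was 0.28 without knockout 3 and 0.22 without controls 2 and 6. Of all genes, 18.5% had a smaller p.

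Egf, the ligand of the distal nephron, was slightly lower without passing. Its values were 10.76, 11.03 and 11.17 log2 on knockout 1, 3 and 5, against 11.31, 11.24 and 11.31 on controls 2, 4 and 6. All 3 arrays labelled knockout lay below the controls, with knockout 1, the male, lowest. The means were 10.99 ± 0.21 and 11.29 ± 0.04 (SD, n = 3 each), a log2 fold change of -0.30 ± 0.09 (SE; 95% interval -0.52 to -0.08) with a limma adjusted p of 0.110. The interval allows a fall of up to 0.52 on the log2 scale and does not reach a 2-fold change. Between the males the difference was -0.48 and between the female means -0.21. With a trended robust prior for the variances Egf passed (adjusted p = 0.0347), and no other alternative called it.

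Markers of the segments that make Egf gave a call in each direction, where 4.12% of all genes rose and 3.08% fell. Of 13 genes of the thick ascending limb and the distal tubule 1 rose and 1 fell, with a median log2 fold change of 0.02, and their mean level was 8.85 to 9.11 log2 on arrays labelled knockout and 8.72 to 9.08 on controls. The 2 calls were Kl, the klotho co-receptor, at -0.46, and Pvalb, parvalbumin of the early distal convoluted tubule, at 0.52. The groups did not overlap for 3 genes that were higher and 3 that were lower, where 11.7% and 10.8% of all genes were so placed. Besides Pvalb, Umod (0.31 ± 0.09) and the calcium channel Trpv5 (0.44 ± 0.15) lay wholly above the controls. Besides Kl, the cotransporter Slc12a1 (-0.25 ± 0.08) and the potassium channel Kcnj1 (-0.31 ± 0.13), both of the thick ascending limb, lay wholly below them (SE; limma adjusted p between 0.108 and 0.221 for these 4). The other 7 genes overlapped, at -0.10 to 0.33. With single arrays left out, at most 1 gene of the list passed, in the fit without knockout 3. Umod, Trpv5, Slc12a1 and Kcnj1 were named after their values were seen.

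Btc, betacellulin, was also lower without passing. It read 5.57, 5.31 and 5.35 log2 on knockout 1, 3 and 5, against 5.69, 5.69 and 5.86 on controls 2, 4 and 6, with no overlap. The means were 5.41 ± 0.14 and 5.75 ± 0.10 (SD, n = 3 each), and the log2 fold change was -0.33 ± 0.10 (SE; 95% interval -0.58 to -0.09; limma adjusted p = 0.106). The difference was -0.12 between the males and -0.44 between the female means.

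Tgfa, transforming growth factor alpha, and Ereg, epiregulin, overlapped between the groups. Tgfa read 4.99, 5.26 and 5.27 log2 on knockout 1, 3 and 5, against 4.97, 4.97 and 5.25 on controls 2, 4 and 6. Its log2 fold change was 0.11 ± 0.10 (SE; 95% interval -0.13 to 0.34; limma adjusted p = 0.600). Ereg read 3.85, 3.67 and 3.33 log2 on knockout 1, 3 and 5, against 3.77, 3.43 and 3.50 on controls 2, 4 and 6. Its log2 fold change was 0.05 ± 0.16 (SE; 95% interval -0.32 to 0.42; adjusted p = 0.895), and the sign turned in the females. The second cluster of Ereg, not used for the gene, lay at 2.67 to 3.12 log2 against 2.92 to 2.99 and differed by -0.02. For both genes the intervals exclude a 2-fold change in the array values in either direction. Ereg had a mean of 3.59 log2, below the array medians of 3.81 to 3.87. How well such low values follow a change in transcript was not tested.

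**Figure D2:**
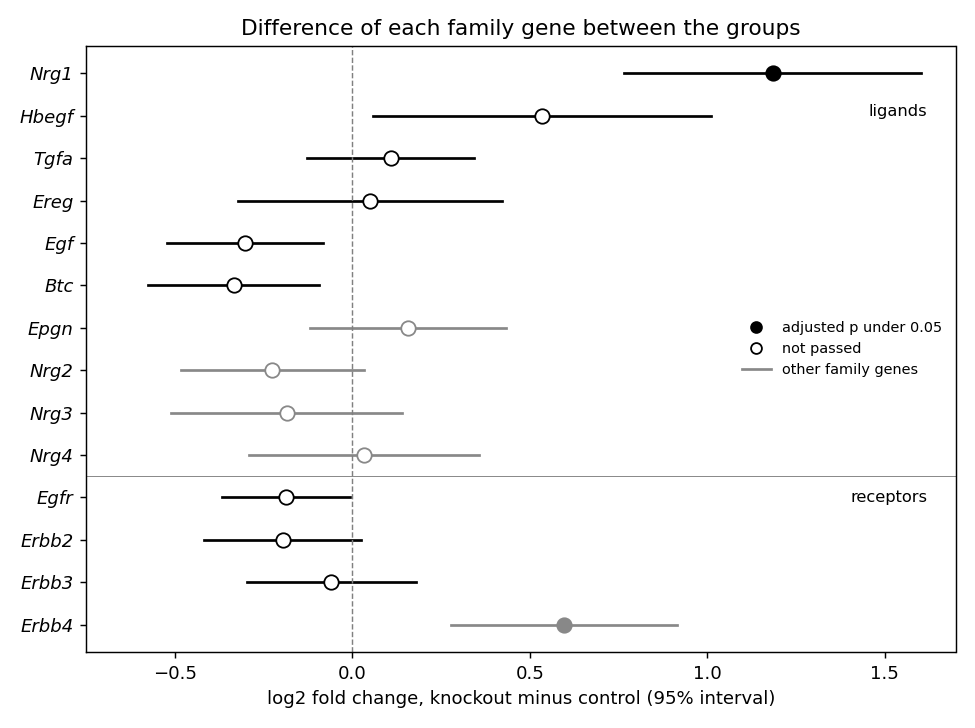
Log2 fold change of each family gene, arrays labelled knockout minus controls (horizontal axis, points), with its 95% interval from limma (lines, n = 3 per group). Ligands stand above the horizontal line and receptors below it, members in black and other family genes in grey; the filled points, Nrg1 at 1.18 and Erbb4 at 0.60, passed an adjusted p of 0.05.

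The 3 receptors of the set lay slightly below the controls or level with them, and none passed. Egfr, the receptor of Egf, Tgfa and Hbegf, read 8.03, 7.96 and 7.89 log2 on knockout 1, 3 and 5, against 8.11, 8.17 and 8.16 on controls 2, 4 and 6. The groups were narrow and did not overlap, with means of 7.96 ± 0.07 and 8.15 ± 0.03 (SD, n = 3 each). The log2 fold change was -0.19 ± 0.08 (SE; 95% interval -0.37 to -0.01; limma adjusted p = 0.212), so a fall of more than 0.37 on the log2 scale lies outside the interval.

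Erbb2, the receptor without a ligand, read 7.49, 7.41 and 7.63 log2 on knockout 1, 3 and 5, against 7.77, 7.71 and 7.63 on controls 2, 4 and 6. Knockout 5 and control 6 were nearly equal, and otherwise the groups were apart. Its log2 fold change was -0.20 ± 0.09 (SE; 95% interval -0.42 to 0.03; limma adjusted p = 0.285). Erbb3, which binds Nrg1, read 8.74, 8.65 and 8.64 log2 on knockout 1, 3 and 5, against 8.74, 8.96 and 8.50 on controls 2, 4 and 6. The arrays labelled knockout lay within the range of the controls, and the log2 fold change was -0.06 ± 0.10 (SE; 95% interval -0.30 to 0.18; adjusted p = 0.793), with the opposite sign in the females (0.02).

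Erbb4, the fourth ErbB receptor and the other receptor of Nrg1, is not a member of the set and was the family receptor that rose. It read 7.24, 7.71 and 7.57 log2 on knockout 1, 3 and 5, against 6.74, 6.97 and 7.01 on controls 2, 4 and 6, with no overlap. The means were 7.51 ± 0.24 and 6.91 ± 0.15 (SD, n = 3 each), a 1.51-fold difference with a log2 fold change of 0.60 ± 0.13 (SE; 95% interval 0.28 to 0.92) and a limma adjusted p of 0.0469. The call was lost without control 2, control 6, knockout 3 or knockout 5 (adjusted p = 0.126, 0.129, 0.141 and 0.137), after quantile normalization or median centring (0.0506 and 0.0540), without the sex term (0.0848) and when every row of the table was tested (0.140). The log2 fold change was between 0.47 and 0.63 in these 8 fits and 0.27 without controls 2 and 6, and Erbb4 passed in 7 of 16 alternatives. Among these passes, the females alone, the fit without knockout 1 and the fit without control 4 give the same values and are not independent.

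**Figure D3:**
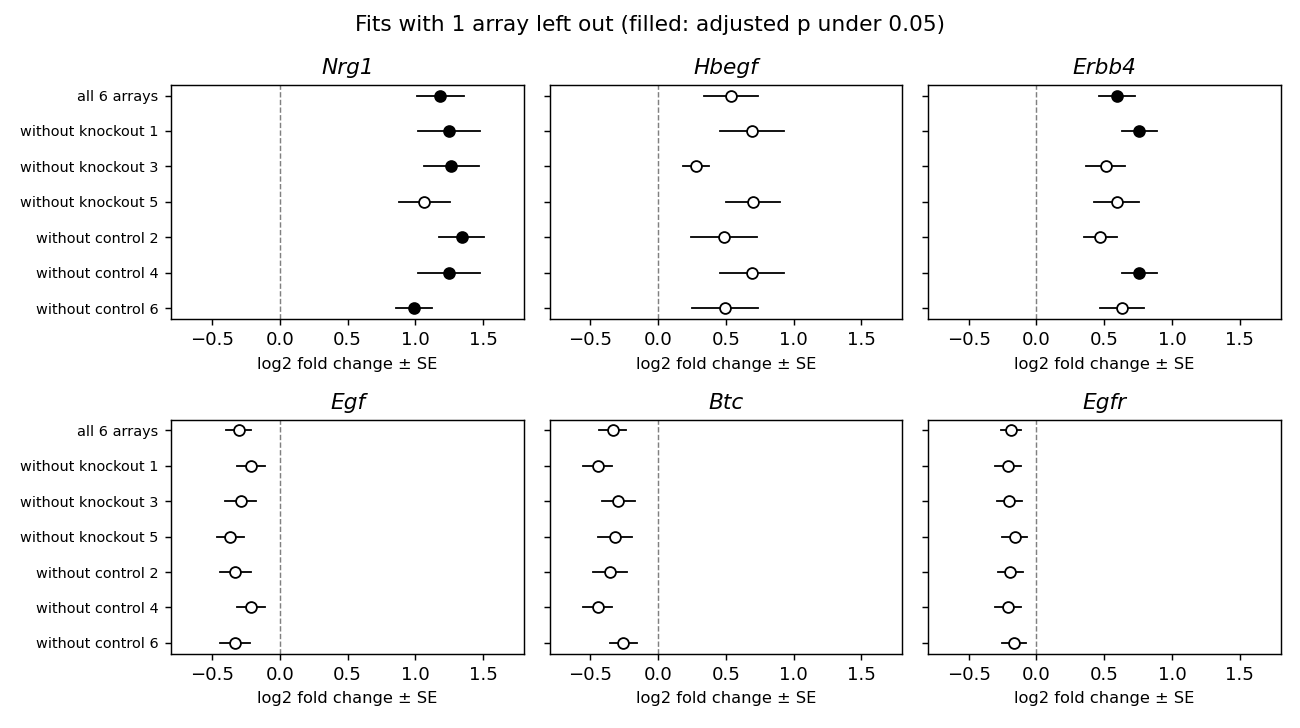
Log2 fold change (horizontal axes, points) ± SE (lines) of 6 family genes, arrays labelled knockout minus controls, with all 6 arrays and with each array left out in turn. Filled points passed an adjusted p of 0.05; Nrg1 stays between 0.99 and 1.34 and loses its call without knockout 5, Erbb4 loses it in 4 of 6 fits, and Hbegf, Egf, Btc and Egfr pass in none.

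The sexes gave no call among the members. In the same model, 415 of 22180 genes (1.87%) differed between males and females, and 0 of 9 members did by limma, with 0 at an unadjusted p under 0.05 (16.1% of all genes). The smallest p was that of Egf, which stood 0.20 log2 lower in males without passing (adjusted p = 0.377). The dependence of the genotype difference on sex was tested with 1 male per group and 2 residual degrees of freedom. By limma it passed for 0 of 9 members, with 0 at an unadjusted p under 0.05, where 0.00451% and 6.99% of all genes did. The smallest p was that of Ereg (adjusted p = 0.779).

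The sequences before the start of Egf and of Erbb4 are printed because they show the contrast in CG dinucleotides within the family. They are the 250 bases upstream of the 5′-most RefSeq start (GRCm38.p6), 5′ to 3′ on the minus strand, at chr3:129755323-129755572 for Egf and chr1:69108060-69108309 for Erbb4, and capitals mark each CG.
Egf: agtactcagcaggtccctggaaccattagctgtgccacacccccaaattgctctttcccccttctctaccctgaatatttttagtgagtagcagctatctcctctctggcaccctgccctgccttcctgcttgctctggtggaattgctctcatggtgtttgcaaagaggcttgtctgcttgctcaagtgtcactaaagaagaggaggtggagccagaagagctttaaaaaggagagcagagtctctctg
Erbb4: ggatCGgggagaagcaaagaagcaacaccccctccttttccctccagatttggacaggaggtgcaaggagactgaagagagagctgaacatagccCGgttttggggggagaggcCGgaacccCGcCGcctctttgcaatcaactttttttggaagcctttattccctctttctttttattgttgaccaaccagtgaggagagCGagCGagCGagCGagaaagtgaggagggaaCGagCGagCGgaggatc
The window of Egf holds 0 CG and that of Erbb4 holds 12, where the median of 32851 such windows was 6 (quartiles 2 and 16). Btc has 4, Egfr 11, Erbb2 16 and Tgfa 19, and a second, internal start of Egf has 15. These are 5 of the 9 measured members and Erbb4. The windows searched do not cover every chromosome, and no window was used for the other members, Nrg1 among them. The letters GTCACGC, a core of the sites that the Pax2 and Pax8 paired domain binds, and TGANTCA, the site of AP-1 (Fos and Jun dimers), were searched on both strands. Neither occurs in any of the 7 windows, and 1.78% and 6.75% of the 32851 windows searched hold them. No match says only that these letters are not in these windows.

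Genes around the EGF receptor pathway were described from 5 lists with 66 measured genes, written with earlier results of these data known. Of the 66 genes 11 rose and 1 fell (18.2%, where 7.20% of all genes passed), and 54 did not pass. The median log2 fold change was 0.10. Without single arrays the count of 12 became 4 to 7: 4 without control 2 or knockout 5, 5 without control 6 or knockout 3, and 7 without control 4 or knockout 1. It was 2 without the sex term and 2 when every row of the table was tested. The count over all genes fell in the same fits, from 1596 to 344 without control 2 and 356 without control 6. It was 529 without knockout 5, 613 without knockout 3 and 1249 without control 4 or knockout 1. Without the sex term it was 471, and 302 rows passed when every row was tested. The family list, Erbb4 with Epgn and Nrg2 to Nrg4, holds 1 of the 12 pathway calls.

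Of 12 genes of ligand release 2 rose and none fell (median 0.21), a share of 16.7%, where 7.20% of all genes passed. Rhbdf2, the inactive rhomboid that carries the sheddase ADAM17 to the cell surface, read 6.23, 6.78 and 6.88 log2 on knockout 1, 3 and 5, against 6.08, 5.62 and 6.09 on controls 2, 4 and 6. It was 1.63-fold higher (log2 fold change 0.70 ± 0.08, SE; limma adjusted p = 0.00737). It kept its call without any single array and lost it without the sex term (adjusted p = 0.137). Its relative Rhbdf1 rose by 0.38 ± 0.08 (adjusted p = 0.0346), a call that was lost without any 1 of the 6 arrays (adjusted p 0.0707 to 0.123). The tetraspanin Cd9, a partner of Hbegf at the membrane, stood at 0.40 ± 0.10 and the metalloprotease Adam12 at 0.40 ± 0.15, both without passing (0.0638 and 0.163). Cd9 has more than 1 cluster, and with their mean its log2 fold change was 0.13 (limma adjusted p = 0.414). The sheddases themselves, named after their values were seen, stood at 0.09 ± 0.08 (Adam17) and 0.04 ± 0.09 (Adam10).

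Of 19 genes that carry the signal inside the cell 1 rose and none fell (median 0.06), a share of 5.26%, where 7.20% of all genes passed. Stat3, the transcription factor activated by cytokine and EGF receptors, read 8.90, 9.33 and 9.37 log2 on knockout 1, 3 and 5, against 8.59, 8.34 and 8.71 on controls 2, 4 and 6. The log2 fold change was 0.65 ± 0.08 (SE; limma adjusted p = 0.00966). It passed without any single array, but neither without the sex term (adjusted p = 0.0886) nor when every row of the table was tested (0.0504). The kinase Akt1 (0.27 ± 0.08), the PI3-kinase subunits Pik3ca (-0.24 ± 0.08) and Pik3r1 (0.23 ± 0.10) came next by p and did not pass (0.0893, 0.137 and 0.233).

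**Figure D4:**
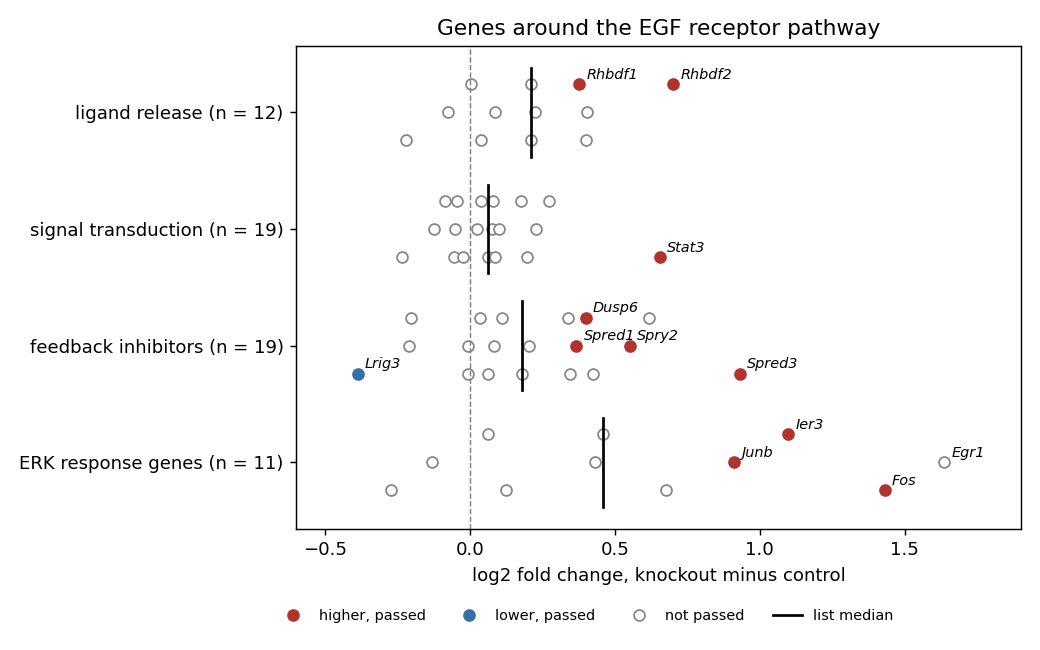
Log2 fold change of the measured genes of 4 pathway lists, arrays labelled knockout minus controls (horizontal axis; each point is a gene, spread vertically for legibility, and black lines are list medians). Red points rose and the blue point fell at an adjusted p of 0.05; medians lie between 0.06 and 0.46, and Egr1, at 1.64, did not pass.

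Among 19 feedback inhibitors of the receptor and of Ras and ERK signalling, 4 rose and 1 fell (median 0.18). That is a share of 26.3%, where 7.20% of all genes passed. Spred3, of the Sprouty-related inhibitors, was 1.91-fold higher, with 4.83, 5.40 and 5.20 log2 on knockout 1, 3 and 5, against 4.44, 4.19 and 4.02 on controls 2, 4 and 6 (log2 fold change 0.93 ± 0.15, SE; limma adjusted p = 0.0182). Spry2, another inhibitor of receptor signalling, rose by 0.55 ± 0.12, the ERK phosphatase Dusp6 by 0.40 ± 0.09 and Spred1 by 0.37 ± 0.08. The fall was in Lrig3 (-0.39 ± 0.09), a transmembrane protein related to the receptor inhibitor Lrig1 and named after its value was seen. Without single arrays, Dusp6, Spred1 and Lrig3 passed in none of 6 fits (adjusted p up to 0.137, 0.129 and 0.154), Spry2 in 2 (up to 0.156; kept without knockout 1 or control 4) and Spred3 in 3 (up to 0.0641; lost without control 2, knockout 3 or knockout 5). Errfi1, the direct inhibitor of Egfr induced by the receptor, stood at -0.01 ± 0.14 and was also chosen for mention with its value known.

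Of 11 genes known to respond to ERK, 3 rose and none fell (median 0.46), a share of 27.3%, where 7.20% of all genes passed. Fos, an AP-1 subunit, rose by 1.43 ± 0.09, Ier3, an early response gene, by 1.10 ± 0.19 and Junb, another AP-1 subunit, by 0.91 ± 0.16 (SE; limma adjusted p = 0.0017, 0.0242 and 0.0245). Fos passed without any single array, Junb lost its call without knockout 5 and without either of controls 2 and 6 (adjusted p up to 0.102), and Ier3 without control 4, control 6, knockout 1 or knockout 3 (up to 0.0935). Egr1, the early response transcription factor, read 5.79, 7.86 and 6.37 log2 on knockout 1, 3 and 5, against 5.35, 5.01 and 4.74 on controls 2, 4 and 6. Knockout 3 was far above the others, and the difference of 1.64 ± 0.43 (SE) did not pass (limma adjusted p = 0.0751). Knockout 3 was also the array with the highest mean of this list (6.71 log2, against 6.06 and 6.34 on knockout 1 and 5).

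The marker lists of macrophages, fibroblasts and tubular injury also differed between the groups. The arrays share their 2 groups, so any list that differs between them goes along with Nrg1. Of all genes 4.12% rose and 3.08% fell. The macrophage and myeloid list had 9 of 12 genes that rose, 0 that fell and a median log2 fold change of 1.33. Its mean level was 6.22 to 7.10 log2 on arrays labelled knockout, against 5.26 to 5.41 on controls, and 4 genes passed without control 2 and 5 without control 6. Cd14, a co-receptor for lipopolysaccharide, rose by 2.00 and Cd68, a lysosomal marker, by 1.27. Among 10 genes of fibroblasts and matrix there were 6 that rose and 0 that fell (mean level 7.30 to 7.69 against 6.26 to 6.92), led by Col1a1 (1.56) and Col3a1 (1.43). Of 11 tubular injury genes 8 rose and none fell (7.55 to 7.65 against 6.22 to 6.75), led by Lcn2 (3.11) and Clu (1.45). Havcr1 of this list, named after its value was seen, stood lower at -0.60 ± 0.36 (SE) without passing (limma adjusted p = 0.400). Without control 2, 5 fibroblast and 5 injury genes rose, and without control 6 it was 4 and 6. All genes that rose numbered 913 in the reported fit, 218 without control 2 and 223 without control 6. No marker in these lists was at 0, since array values have none, and their part in the result for Nrg1 was not tested.

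The remaining marker lists gave few calls, where 7.20% of all genes passed. Of 4 measured genes of neurons and Schwann cells, a known source and target of neuregulin, none passed (median 0.13; mean level 3.87 to 3.89 log2 on arrays labelled knockout and 3.68 to 3.82 on controls). Mbp, a myelin protein, stood at 0.30 and the neurotrophin receptor Ngfr at 0.31 (limma adjusted p = 0.0713 and 0.0833). Of 9 lymphocyte genes 1 rose, Cd4 (0.89), and Il7r stood at 0.52 without passing (0.0638). Of 8 endothelial genes none passed (median 0.01), with Emcn at -0.40 and Cdh5 at 0.11. Of 6 urothelial genes 1 rose, Krt7 (0.54), and Psca stood at -0.24. Of 4 podocyte genes none passed (Nphs1 -0.14, Synpo 0.14), nor did any of 7 adipose genes (Ucp1 -1.70 ± 0.92, Plin1 -0.51 ± 0.36).

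Beside the lower values of Egf and Btc, part of the markers of other tubule segments fell, where 3.08% of all genes did. Of 10 proximal tubule genes 5 fell and none rose, with a mean level of 9.11 to 9.82 log2 on arrays labelled knockout, against 10.45 to 10.59 on controls, led by Slc5a2 (-2.95) and Slc34a3 (-3.23). Of 10 collecting duct genes 6 fell and none rose (7.26 to 7.48 against 8.05 to 8.48), led by Fxyd4 (-2.19) and Hsd11b2 (-2.04). The other 5 proximal genes stood at -0.34 to 0.25 and the other 4 collecting duct genes at -0.04 to 0.16, without passing. Without control 2 or control 6, 2 proximal and 4 collecting duct genes fell, and without knockout 5 it was 3 and 6. All genes that fell numbered 683 in the reported fit, 126 without control 2, 133 without control 6 and 194 without knockout 5. The part of these markers in the lower values of Egf, Btc and Egfr was not tested.

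**Figure D5:**
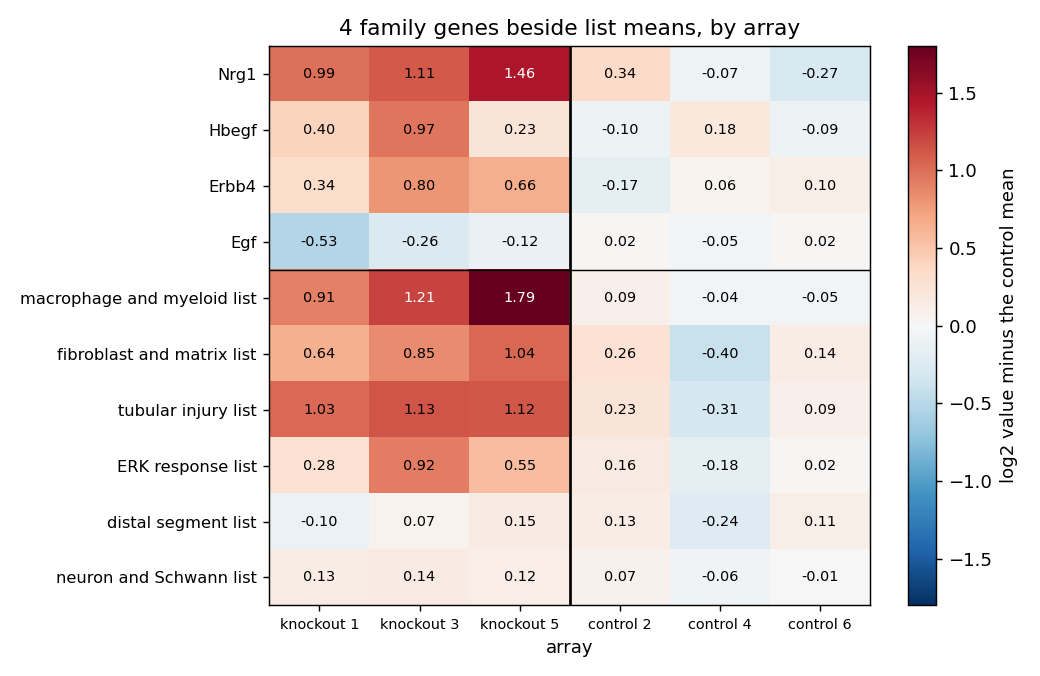
Differences from the control mean (log2 units, colour and printed numbers) of 4 family genes and of the mean of 6 gene lists on each array (columns; the vertical line parts arrays labelled knockout from controls). Nrg1 (1.46) and the macrophage, fibroblast and distal segment lists are highest on knockout 5. Hbegf (0.97), Erbb4 and the ERK response list are highest on knockout 3, and Egf is lowest on knockout 1 (-0.53). The injury list (1.03 to 1.13) and the neuron list (0.12 to 0.14) are nearly level across the arrays labelled knockout.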

How the data were processed

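The authors deposited log2 expression values per transcript cluster for 6 arrays. RMA, limma and R 3.4.0 are named per the submitters' processing notes without their roles; the sources used here give no filter or genome build. Per the labels' protocols, 400 ng of RNA was labelled for each array. The deposited values were used as they are. Of 41345 clusters, 23521 carried 1 gene symbol in the platform annotation, 1814 several and 16010 none. Gene identifiers matched a RefSeq table (GRCm38.p6) for 23328 and changed 0 symbols. The highest-mean cluster per gene left 22180 genes.

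Differences were fitted with limma 3.58.1 in R 4.3.3 in a model of genotype and sex with variances moderated by eBayes (6.72 degrees of freedom in total, 3 of them residual) and adjusted by Benjamini-Hochberg over all genes, with a threshold of 0.05. A log2 fold change is the arrays labelled knockout minus controls, and SE is limma's moderated standard error. The members and gene lists were chosen with earlier results of these data known. The text names all members, Pax2, Pax8 and the rest of the family, up to 4 genes of each pathway list and 2 of each marker list by p, and the 3 genes with the highest r with a member that passed; other names are said to be chosen after their values were seen, as are Umod and Slc34a1 in the check of the tissue. Alternatives were another model, prior, weighting, scaling, filter or cluster rule and single arrays left out; leaving out controls 2 and 6 was added after seeing the data. The 6 arrays limit the precision, and no batch is given in the labels.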

Additional observations from a re-analysis of the deposited data

How the results depend on the processing

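Over 16 alternatives, Nrg1 kept its direction (log2 fold change 0.99 to 1.34) and passed in 13. It missed the threshold without knockout 5 (adjusted p = 0.0558), when every row of the table was tested (0.0714), and without controls 2 and 6 (0.339). Members passing numbered 1 in the reported fit, 2 with a trended robust prior, where Egf joined Nrg1, 0 when every row was tested and 0 without controls 2 and 6; with single arrays left out it was 0 to 1. Where limma called 0 members, 3 (every row), 2 (controls 2 and 6) and 5 (knockout 5) had an unadjusted p under 0.05. Genes passing numbered 471 without the sex term, 302 when every row was tested and 0 without controls 2 and 6 (2329 at an unadjusted p under 0.05), and with single arrays left out 344 to 1249 (344 without control 2, 356 without control 6, 529 without knockout 5 and 613 without knockout 3). Pathway genes passing numbered 2 without the sex term, 7 in the females, 2 when every row was tested and 0 without controls 2 and 6 (13 at an unadjusted p under 0.05), and 4 to 7 with single arrays left out. Testing every row puts 41345 rows in the fit, and the fit without controls 2 and 6 has control 4 as its only control, assumed to vary as knockout 3 and 5 do, and 1 residual degree of freedom, so its counts of 0 say nothing about stability. Otherwise the cause was not tested. Fits without knockout 1 or control 4 give the same values as the females alone, since the remaining male is fitted by the sex term. Signs turned, none of them called, for Ereg (-0.13 in the females and -0.0034 with array weights; -0.13 to 0.20 with single arrays left out), Erbb3 (0.024 in the females; -0.15 to 0.024 with single arrays left out), Nrg2 (0.0050 without controls 2 and 6) and Nrg4 (-0.10 in the females, -0.10 to 0.18 with single arrays left out, -0.013 after quantile normalization and -0.0022 after median centring). The other members kept their direction, Hbegf between 0.22 and 0.70. No paired analysis was possible because the groups share no replicate numbers.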
